A study of Homo sapiens with 20 samples.

Results

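The E2 genes described here are the genes for ubiquitin-conjugating enzymes of the UBE2 family in HUDEP-2 cells. They were chosen by symbol, as every gene whose symbol is UBE2 followed by a letter and further letters or digits and which has at least 1 curated RefSeq mRNA among its transcripts. Of 46425 genes in the files, 34 met this rule, and 1 further symbol of the same pattern is not analysed here. HUDEP-2 is an immortalized erythroid progenitor line from human umbilical cord blood, of wild-type genotype, which grows while doxycycline is present. Cells were sequenced while still in maintenance culture (day 0, the proerythroblast stage) and on days 1 to 8 and 12 after transfer to differentiation medium. The medium held erythropoietin throughout, stem cell factor was left out from day 6, and doxycycline was left out from day 8. Days 4 to 6 stand for early to late basophilic erythroblasts, day 8 for polychromatic cells, and day 12 for a mix of orthochromatic cells and reticulocytes. The 20 libraries fall on 10 days with 2 for each. One library of each day comes from a table of all days (all-day library) and the other from tables of separate days (separate-day library). The tables hold 3 day 0 libraries for 2 day 0 samples, and the labels do not tell which of them are those samples. The one beside the day 12 library was not used, so that every comparison with day 0 rests on this choice. The study calls its replicates of undifferentiated and differentiated HUDEP-2 cells biological, but the labels do not say that they came from separate cultures, so p-values measure the spread between these libraries, which may be technical.

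E2 enzymes stand in the middle of the ubiquitin cascade. An E1 enzyme charges the E2 with ubiquitin, and the E2, together with an E3 ligase that binds the substrate, passes it on and often sets how the chain is built. Some E2 enzymes carry ubiquitin-like proteins in place of ubiquitin. In maturing red cells this system clears ribosomes, organelles and unpaired globin, and UBE2O and UBE2H are the family members best known from reticulocytes.

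The libraries held 52131713 to 70358198 counts, so that a count of 0 allows up to 3 counts, or 0.0426 to 0.0575 in CPM, which are counts brought to a common library sum. All 9 erythroid markers, among them GATA1, KLF1, ALAS2, SLC4A1 and HBB, were higher on day 8 than on day 0, lymphoid markers were at 0 TPM (the share of all transcripts, scaled for length) in every library, and myeloid markers summed to at most 1.52 TPM. Megakaryocyte markers summed to 10.7 and 69.0 TPM on day 0 and to at most 1.03 TPM on day 12. Of these 4 markers, 3 had at most 3 counts in each library of day 0, and the same number on day 12. The day 0 sum therefore rests almost wholly on 1 gene. Ribosomal RNA took 18.5% and 17.5% of the counts in the separate-day libraries of days 7 and 8, against 1.03 to 4.08% in the other 18 libraries. Globin genes took 0.859% and 0.819% of counts on day 0, 9.85% and 8.49% on day 8, and 28.2% and 33.7% on day 12, in the separate-day and the all-day library.

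For this reason a pair of scales was used, and changes are given on the TMM scale unless the TPM scale is named. On the TMM scale counts are scaled by the trimmed mean of M-values, which sets the bulk of genes near no change. On the TPM scale a gene is a share of all transcripts, so that a gain by globin lowers the rest. From day 8 to day 12 the median log2 fold change of all genes tested was -0.20 on the TMM scale and -0.68 on the TPM scale. Pairs of values below are for the separate-day and then the all-day library. Fold changes on the TMM scale are from the quasi-likelihood test of edgeR in one fit of all 20 libraries, and those on the TPM scale are from limma on log2(TPM + 1). Both are on the log2 scale with a standard error (SE), and p-values are adjusted by the Benjamini-Hochberg method over the 16784 genes tested, with 0.05 as the threshold. In bulk RNA of this kind, fewer cells of one stage and less RNA per cell cannot be told apart.

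Sequence just upstream of the genes was taken from RefSeq (build GRCh38.p14). Windows of 250 bases before to 50 bases after a start were at hand for 27 of the 34 genes, and UBE2B and UBE2H were among those without one. The 2 stretches printed are those of UBE2T, the gene with the largest loss from day 8 to day 12, and of UBE2O, the reticulocyte enzyme with a window. Both genes are on the minus strand, the stretches read 5′ to 3′ along it, and each stops before the first base of any annotated transcript. Capitals mark TTTGAA and CCAAT, letters found in promoters of many cell cycle genes. UBE2T has TTTGAA starting at position -153 and CCAAT at -124 and -73 relative to the start (chr1:202341967-202342186), and UBE2O has neither in its stretch (chr17:76453235-76453402).
UBE2T: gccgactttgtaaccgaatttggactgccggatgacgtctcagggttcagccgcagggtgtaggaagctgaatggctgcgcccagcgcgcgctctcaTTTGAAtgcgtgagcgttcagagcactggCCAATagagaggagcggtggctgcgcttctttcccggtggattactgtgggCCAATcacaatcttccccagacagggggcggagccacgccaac
UBE2O: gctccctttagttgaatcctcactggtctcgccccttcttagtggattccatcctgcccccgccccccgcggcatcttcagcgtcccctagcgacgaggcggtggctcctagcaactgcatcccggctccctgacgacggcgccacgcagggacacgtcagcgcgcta

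Across all windows, searched on both strands, TTTGAA or TTCGAA was held by 3 of the 27 E2 genes and by 19.5% of the 27305 genes with a window, and CCAAT by 9 of 27 and 39.7%. The 3 genes with TTTGAA or TTCGAA are UBE2T, UBE2F and UBE2U, and each also holds CCAAT. Unlike UBE2T, UBE2F was higher on day 12 than on day 8 on the TMM scale (1.11), and below 0 by TPM (-0.31). UBE2U had 0 counts in every library. The GATA letters AGATAA or TGATAA were held by 2 of 27 (UBE2D3 and UBE2V1) and by 19.4% of genes. CCACNCCC, the letters bound by KLF1, was held by 8 of 27 and by 19.9%, with a match in UBE2O at position 30 after the start, outside the stretch shown. These matches describe letters in a window.

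Of the 34 genes, 31 passed the filter on low counts and were tested. UBE2QL1 and UBE2U had 0 counts in every library, and UBE2L5 reached 0.0617 TPM at most. A total of 29 genes stood above 1 TPM in every library. The sum over all 34 was 2538 and 2358 TPM on day 0, 1670 and 1896 on day 8, and 1233 and 916 on day 12. By counts, the family held 0.315% and 0.286% of the library on day 0, 0.230% and 0.267% on day 8, and 0.278% and 0.223% on day 12. The family thus lost ground by TPM from day 0 to day 8 and from day 8 to day 12, with no overlap among these days, while its count shares of days 8 and 12 overlapped. Neighbouring days did overlap by TPM, since day 1 (2665 and 2247) spanned day 0 and day 7 (1755 and 1826) lay within day 8.

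**Figure D1:**
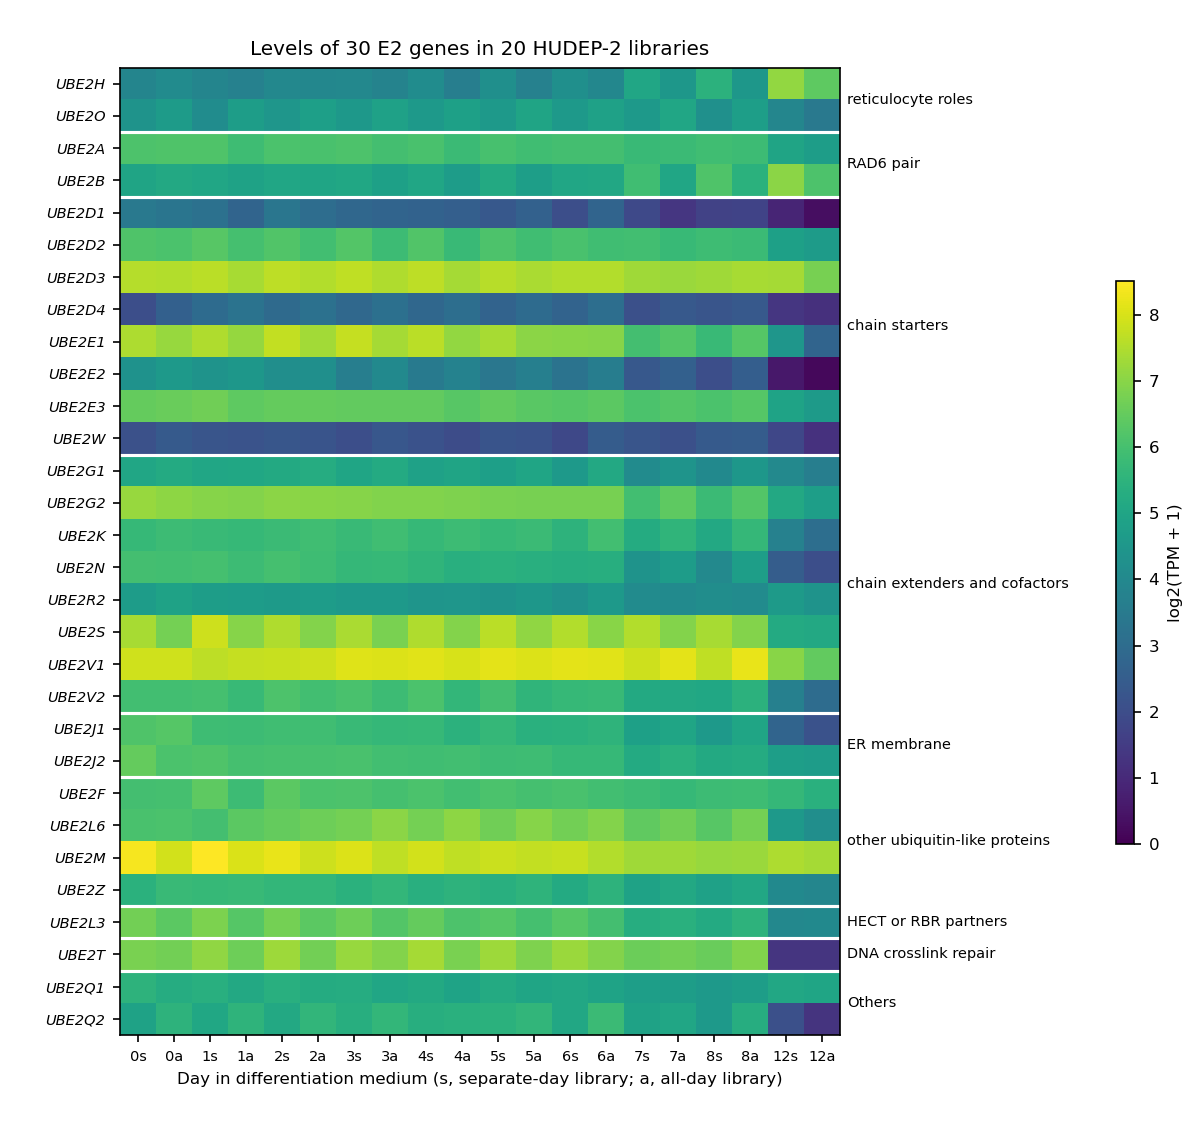
Colour gives log2(TPM + 1) of 30 of the 31 tested E2 genes (vertical axis, grouped by role) in the 20 libraries (horizontal axis, day and library set). UBE2H and UBE2B are at their brightest on day 12, whereas UBE2T and UBE2E2 are near the dark end on day 12.

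Levels differed widely within the family on the TPM scale. UBE2M, which charges cullins with NEDD8, led on day 0 with 337 and 246 TPM, followed by UBE2V1 with 235 and 235 TPM, and these 2 genes did not overlap. On each of the 10 days the highest mean belonged to UBE2M or UBE2V1. On day 12 the order was UBE2M, UBE2D3, UBE2H, UBE2V1 and UBE2B, in which each neighbour overlapped the next, and UBE2B stood clear of the next gene. UBE2H had been among the lowest on day 0, with only UBE2D1, UBE2D4, UBE2W and the 3 untested genes below it. By mean TPM, 9 of the 31 genes were highest on day 0, 8 on day 1 and 5 on day 2. UBE2E1 peaked on day 3, UBE2L6 and UBE2T on day 4, UBE2Q2 on day 5, UBE2V1 on day 6, UBE2O on day 7 and UBE2W on day 8, and UBE2H and UBE2B were the 2 genes with the highest mean on day 12.

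Any change over the 10 days was called for 24 of the 31 genes (77.4%), against 66.0% of all genes tested. The 7 genes not called were UBE2D2, UBE2E3, UBE2G2, UBE2L3, UBE2S, UBE2V2 and UBE2Z.

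UBE2H is the E2 that works with the CTLH ligase complex and is a known erythroid enzyme (chr7:129830732-129952960). Its level was 13.7 and 16.2 TPM on day 0, 43.6 and 21.7 on day 8, and 137.9 and 83.0 on day 12. Over the 14 libraries of days 0 to 6 it lay between 11.4 and 17.9 TPM, with a median of 14.3 TPM, and on day 7 it reached 31.9 and 21.7 TPM. All libraries of days 7, 8 and 12 were above all of days 0 to 6, and both of day 12 were above both of day 8. As counts these were 1975 and 2502 on day 0, 8368 and 3220 on day 8, and 31871 and 23024 on day 12. On the TMM scale UBE2H rose by 1.78 ± 0.37 (SE, n = 2 per day) from day 0 to day 8 (adjusted p = 0.00225 with edgeR) and by a further 3.12 ± 0.39 to day 12 (adjusted p = 1.15e-05). From day 0 to day 12 this is 4.89 ± 0.42, or 29.7-fold.

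The rise of UBE2H was also called on the TPM scale, by 1.00 ± 0.33 to day 8 (adjusted p = 0.023 with limma) and by 1.76 ± 0.33 from there to day 12 (adjusted p = 0.000352). The libraries of day 8 were far apart. Within the separate-day set the log2 change from day 0 to day 8 was 2.36, and within the all-day set it was 0.92. Without the separate-day library of day 8, whose ribosomal RNA share stands apart, the change to day 8 was 1.00 (adjusted p = 0.0444) and that from day 8 to day 12 was 3.88, and without both separate-day libraries of days 7 and 8 the change to day 8 was 1.03 (adjusted p = 0.026). The part of ribosomal RNA in this gap was not tested. Transcript NM_003344 carried 89.6 to 98.4% of the UBE2H level in every library.

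UBE2H made up 0.540% and 0.688% of the summed E2 level by TPM on day 0, and 11.2% and 9.06% on day 12. By counts, which weight its long transcript more, it held 20.2% and 17.0% of the family on day 12. Both library sets show this shift of the family's signal toward UBE2H.

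UBE2O is an enzyme that acts as E2 and E3 in one and tags ribosomal proteins and unpaired alpha globin in reticulocytes (chr17:76389456-76453234). It had 19.6 and 24.7 TPM on day 0, 23.3 and 31.8 on day 7, 18.4 and 26.6 on day 8, and 14.0 and 9.99 on day 12. Day 12 was below all other days by TPM, and day 8 overlapped day 0. Scaled by TMM, UBE2O had 43.5 and 51.8 CPM on day 0, 66.1 and 79.0 CPM on day 8, and 108 and 101 CPM on day 12, so that the order of the days turned around. On the TMM scale UBE2O rose by 0.61 ± 0.20 to day 8 (adjusted p = 0.0285 with edgeR, against 0.0078 on the TPM scale, adjusted p = 0.995), and from day 8 to day 12 it was higher by 0.53 ± 0.20 (adjusted p = 0.0352), whereas on the TPM scale it was lower on day 12 by a log2 difference of -0.85 ± 0.27 (adjusted p = 0.0142 with limma). The day 8 call was lost without the separate-day library of day 0 (0.48, adjusted p = 0.188) or the all-day library of day 8 (0.49, adjusted p = 0.149), and the day 12 call without either library of days 6, 8 or 12 (lowest 0.39, adjusted p = 0.205). UBE2O has 6 transcripts, of which NM_022066 carried a median of 50.2% (11.7 to 70.7%), and with curated transcripts alone the change from day 8 to day 12 was -0.49 on the TMM scale too.

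The ratio of UBE2H to UBE2O within a library does not depend on the scaling between libraries. It was 0.698 and 0.656 on day 0, 2.37 and 0.815 on day 8, and 9.85 and 8.31 on day 12. Both libraries of day 12 were far above all others.

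**Figure D2:**
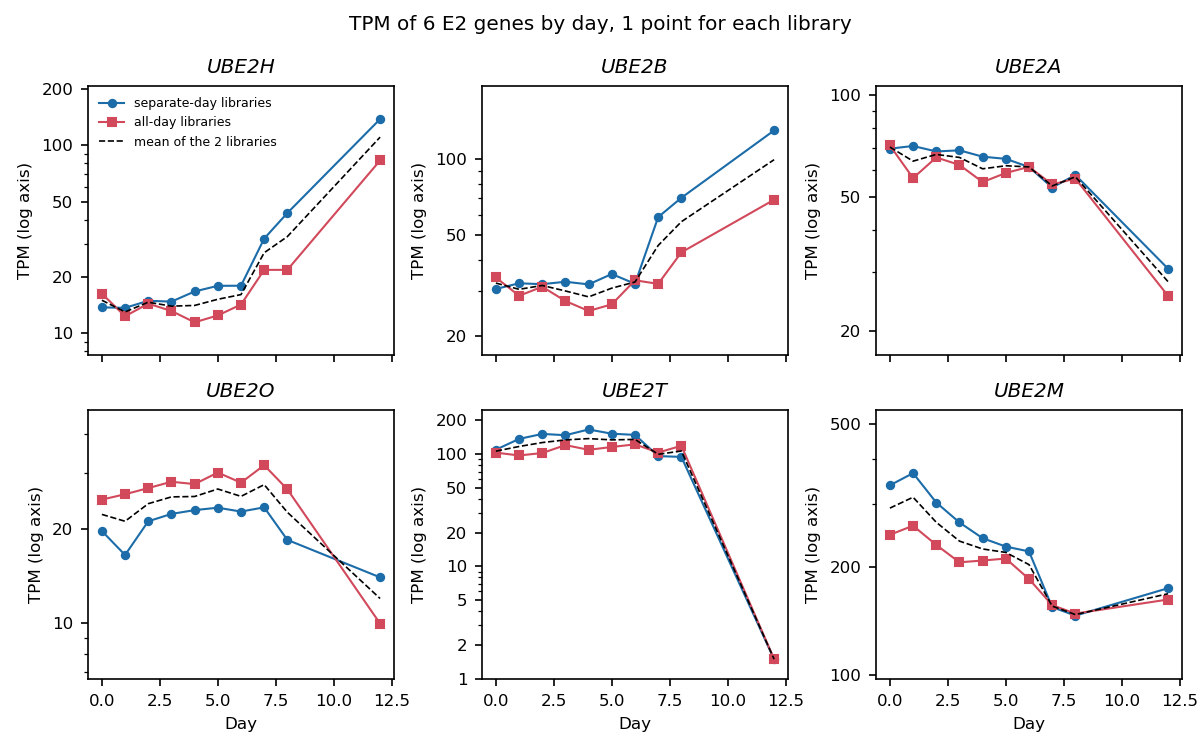
TPM on a log axis (vertical) against day (horizontal) for UBE2H, UBE2B, UBE2A, UBE2O, UBE2T and UBE2M, 1 point for each library with a line for each library set and a dashed line for the mean. UBE2H and UBE2B stand above their range of days 0 to 6 on days 8 and 12, while UBE2T lies between 94.5 and 166 TPM up to day 8 and at 1.49 and 1.5 TPM on day 12.

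UBE2A and UBE2B are the human forms of yeast RAD6, which ubiquitylates PCNA with RAD18 and histone H2B with RNF20 and RNF40. UBE2B (chr5:134371569-134392108) had 30.6 and 34.0 TPM on day 0, 70.2 and 42.7 on day 8, and 129.8 and 69.0 on day 12. UBE2A had 69.6 and 71.1 TPM on day 0, 58.1 and 56.7 on day 8, and 30.7 and 25.5 on day 12. The 2 paralogs thus changed places, and UBE2B of the 14 libraries of days 0 to 6 lay between 25 and 35.0 TPM, below every later day except for the all-day library of day 7. UBE2B rose on the TMM scale by 1.45 ± 0.34 to day 8 (adjusted p = 0.00506 with edgeR) and by 2.17 ± 0.35 from day 8 to day 12 (adjusted p = 0.000114). On the TPM scale the day 8 difference was 0.75 (adjusted p = 0.0722 with limma), and that from day 8 to day 12 was a rise of 0.78 ± 0.32 (adjusted p = 0.0496). Without the separate-day library of day 8 the first TMM change was 0.87 (adjusted p = 0.0916). UBE2A was not called at day 8 (0.31 ± 0.17) or between days 8 and 12 (0.37 ± 0.17) on the TMM scale. From day 0 to day 12 UBE2A was higher on the TMM scale by 0.68 ± 0.17 (adjusted p = 0.00266) but lower on the TPM scale.

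The ratio of UBE2B to UBE2A stayed between 0.440 and 0.540 in the 14 libraries of days 0 to 6. It was 1.10 and 0.588 on day 7, 1.21 and 0.753 on day 8, and 4.23 and 2.71 on day 12. UBE2B has a single annotated transcript, NM_003337.

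Day 8 against day 0 was the first comparison with many calls. Of the 31 genes, 13 were called (41.9%), against 37.1% of all genes, 6 higher (17.7% of all genes) and 7 lower (19.4% of all genes). The median log2 fold change of the members was 0.23 on the TMM scale and -0.37 on the TPM scale, and that of all genes was 0.00 and -0.34. With log2(TPM + 0.1) the medians on the TPM scale were -0.38 for the members and -0.52 for all genes. On the TPM scale 1 member, UBE2H, was called higher and 16 were called lower, against 7.29% and 39.7% of all genes. The other 5 genes called higher on the TMM scale (UBE2B, UBE2L6, UBE2O, UBE2V1 and UBE2W) were above 0 but not called on the TPM scale, and the 7 called lower were called lower on both. With a term for the table set in the fit, 11 members were called higher. Of the calls over all genes in that fit, 46.8% were higher, against 47.7% without the term. The 17.7% above belongs to the fit without the term and is no measure for the 11. The share of all genes called higher with the term is not given here, so the 11 cannot be read as a trait of the E2 genes. In the earlier step, days 4 to 6 against day 0, 5 of 31 genes were called, against 16.6% of all genes. UBE2L6, UBE2D4 and UBE2V1 were higher (7.38% of all genes), and UBE2E2 and UBE2J1 were lower (9.22% of all genes). Of these, UBE2L6 alone was called in each of the 20 fits that left out a library.

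**Figure D3:**
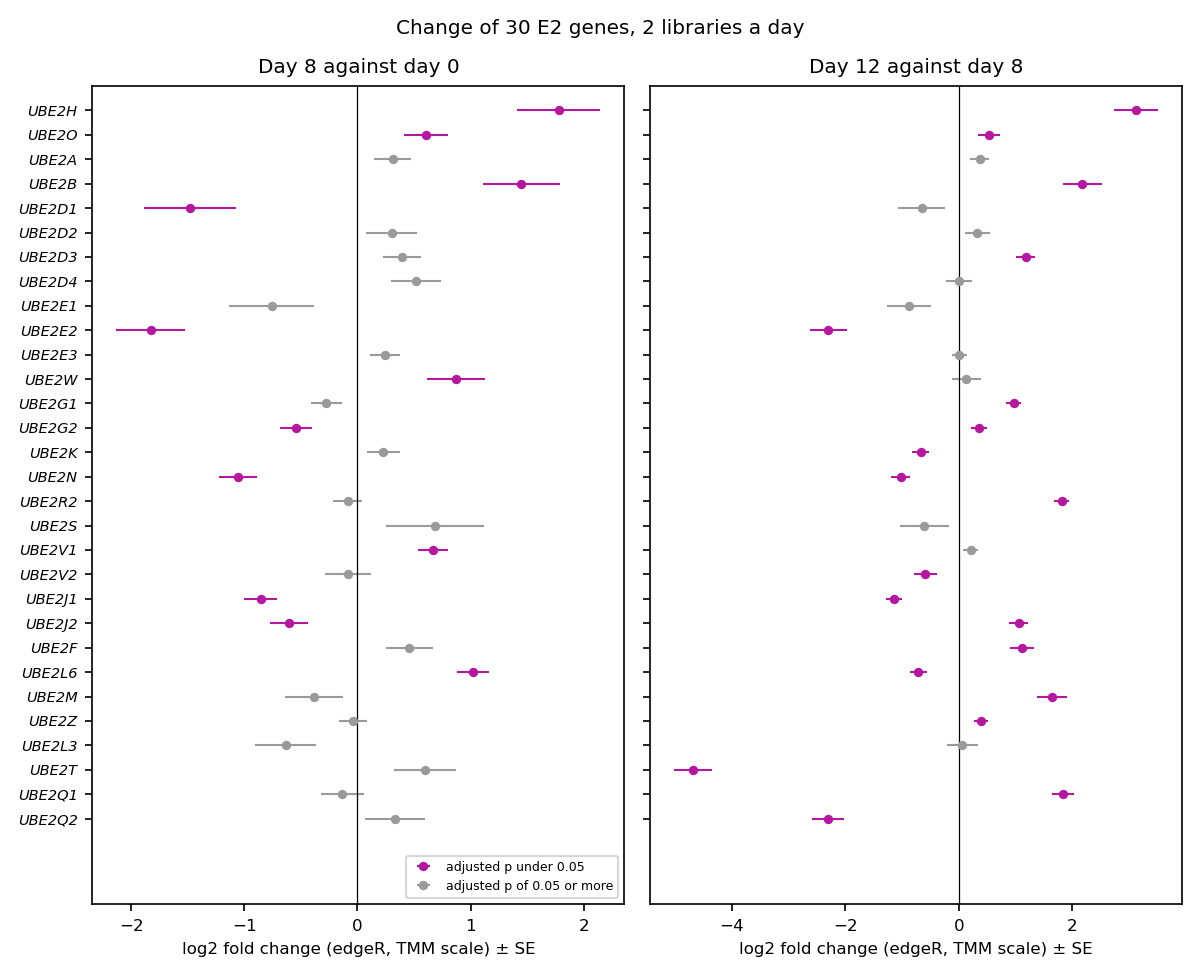
Log2 fold change on the TMM scale ± SE (horizontal) for 30 of the 31 tested E2 genes (vertical, by role), day 8 against day 0 on the left and day 12 against day 8 on the right, n = 2 libraries a day. UBE2H has the largest increase in both panels and UBE2T the largest decrease in the right one, and 7 of the 12 genes shown as called higher on the right are below 0 on the TPM scale.

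Day 12 against day 8 called 21 of the 31 genes (67.7%), against 57.2% of all genes, 13 higher (23.8% of all genes) and 8 lower (33.4% of all genes). The median of the members was 0.21 on the TMM scale, against -0.20 for all genes. On the TPM scale it was -1.06, against -0.68 for all genes, with 4 members called higher and 22 lower, against 8.38% and 53.6% of all genes. With log2(TPM + 0.1) in place of log2(TPM + 1) these medians were -1.22 and -1.20, so the gap between members and all genes depends on the added constant. Of the 13 genes higher on the TMM scale, 5 were above 0 on the TPM scale (UBE2H, UBE2B, UBE2Q1, UBE2R2 and UBE2M) and 8 were below 0, among them UBE2D3, UBE2F and UBE2G1. UBE2G2, UBE2J2, UBE2O and UBE2Z of these 8 were called lower there. The 8 genes lower on the TMM scale (UBE2T, UBE2Q2, UBE2E2, UBE2J1, UBE2N, UBE2L6, UBE2K and UBE2V2) were called lower on both scales. Relative to the median of all genes on the same scale, 10 members were above it on both scales and 11 were below it on both. These counts use log2(TPM + 1) and its median. All genes were not counted in the same way, so the counts describe the members only. Within each library set alone, all 21 called genes moved in the direction of the fit, and 27 of the 31 tested genes moved the same way in both sets. A call on 2 libraries a day favours such agreement, so it is no separate support. The share of all genes that moved the same way in both sets was not counted.

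**Figure D4:**
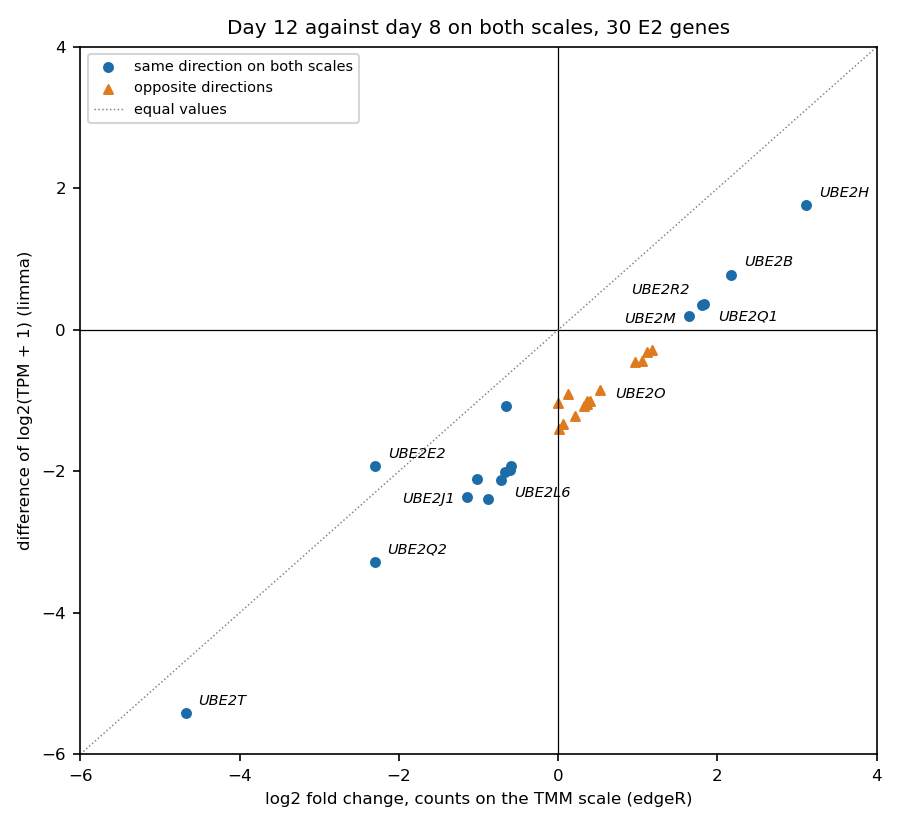
Difference of log2(TPM + 1) (vertical, limma) against log2 fold change on the TMM scale (horizontal, edgeR) for day 12 against day 8, 1 point for each of 30 of the 31 tested E2 genes, with triangles for genes whose direction differs between the scales and a dotted line of equal values. UBE2H, UBE2B, UBE2Q1, UBE2R2 and UBE2M are the 5 points above 0 on both axes, and UBE2O is among the triangles.

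Day 12 against day 0 called 25 of 31 genes, against 68.2% of all genes, 16 higher (29.7% of all genes) and 9 lower (38.5% of all genes) on the TMM scale. Of the 16, 2 were higher on the TPM scale too, UBE2H by 2.76 and UBE2B by 1.53, and the other 14 were called lower there, against 10.1% higher and 65.7% lower for all genes. The 9 genes lower on the TMM scale were called lower on both, led by UBE2E2 and UBE2T.

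UBE2T monoubiquitylates FANCD2 and FANCI with the ligase FANCL in repair of DNA crosslinks (chr1:202331657-202341966). It had 109.5 and 103.1 TPM on day 0, 94.5 and 118.7 on day 8, and 1.49 and 1.5 on day 12. As counts these were 2691 and 2719, 3100 and 3016, and 60 and 71. Day 8 overlapped day 0, and day 12 lay far below both. UBE2T fell by 4.68 ± 0.33 on the TMM log2 scale from day 8 to day 12 (adjusted p = 6.58e-08 with edgeR), and between day 0 and day 8 it was not called (0.60 ± 0.28, adjusted p = 0.108). Its 3 partner genes were also lower on day 12 than on day 8 on both scales, with a TMM log2 fold change of -6.39 for FANCI, -4.42 for FANCL and -3.36 for FANCD2. FANCI went from 62.2 and 94.2 TPM to 0.390 and 0.280 TPM. Proliferation markers moved with them, since all 8 (MKI67, TOP2A, CDK1, CCNB1, PCNA, MCM2, BUB1 and AURKB) fell on both scales and their summed level went from 1567 and 1998 TPM on day 8 to between 50.7 and 70.1 TPM on day 12. Their part in the loss of UBE2T was not tested.

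The promiscuous chain starters, which put the first ubiquitin on substrates of many E3 ligases, are UBE2D1 to UBE2D4, UBE2E1 to UBE2E3 and UBE2W. At day 8, 1 of these 8 genes was higher and 2 were lower on the TMM scale, against 17.7% and 19.4% of all genes, and 0 and 4 on the TPM scale, against 7.29% and 39.7%. UBE2E2 had 19.3 and 23.4 TPM on day 0, 3.12 and 4.82 on day 8, and 0.474 and 0.123 on day 12. Its days did not overlap. UBE2E2 fell by 1.83 ± 0.30 to day 8 (adjusted p = 0.000512 with edgeR) and by 2.30 ± 0.33 from day 8 to day 12 (adjusted p = 4.33e-05), and without the separate-day library of day 12 the second change was -3.21. On days 4 to 6 UBE2E2 was already lower by a log2 difference of -0.84 ± 0.23 (adjusted p = 0.0237), a call lost in 5 of the 20 fits that left out a library.

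UBE2D1 had 9.94 and 9.02 TPM on day 0, 2.18 and 2.29 on day 8, and 0.861 and 0.254 on day 12. UBE2D1 fell by 1.48 ± 0.41 to day 8 (adjusted p = 0.0125 with edgeR), a call lost without the separate-day library of day 0 (-1.37, adjusted p = 0.0637) or either library of day 8 (adjusted p = 0.0577 and 0.0679). Its days did not overlap either, and from day 8 to day 12 it was not called on the TMM scale (-0.65) and was lower on the TPM scale (-1.08, adjusted p = 0.00363 with limma). Its paralog UBE2D3 was far more abundant, with 187 and 183 TPM on day 0, 156 and 169 on day 8, and 165 and 108 on day 12. UBE2D3 was higher on day 12 than on day 8 on the TMM scale (1.18 ± 0.17) and below 0 on the TPM scale. UBE2D2 went from 70.1 and 68.2 TPM to 27.7 and 24.3 TPM between day 0 and day 12. On the TMM scale UBE2D2 was called higher over these days (0.63). That call was lost without either library of day 0 or the all-day library of day 12. The ratio of UBE2D3 to UBE2D2 went from 2.67 and 2.69 on day 0 to 5.94 and 4.46 on day 12.

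UBE2W, which modifies the amino terminus of its substrates, was a low gene with 3.31 and 4.32 TPM on day 0, 4.28 and 4.52 on day 8, and 2.55 and 1.32 on day 12. On the TMM scale UBE2W rose to day 8 by 0.87 ± 0.26 (adjusted p = 0.0171 with edgeR, against 0.17 on the TPM scale, adjusted p = 0.581), and the call was lost without the separate-day library of day 0 (0.73, adjusted p = 0.129) or of day 8 (0.77, adjusted p = 0.103). UBE2E1 went from 175 and 147 TPM on day 0 to 21.2 and 5.71 TPM on day 12, and UBE2E3 from 89.2 and 94.9 TPM to 29.8 and 23.7 TPM. On the TMM scale UBE2E1 was called lower from day 0 to day 12 (-1.64), while UBE2E3 was not called (0.26). The ratio of UBE2E1 to UBE2E3 was 1.96 and 1.55 on day 0 and 0.711 and 0.240 on day 12, so that the more abundant of the pair changed. UBE2D4 had 3.09 and 5.17 TPM on day 0 and 5.51 to 7.51 TPM on days 4 to 6. It was higher there by 0.79 ± 0.19 on the TMM scale (adjusted p = 0.0125, against 0.57 on the TPM scale, adjusted p = 0.0537), a call lost without the separate-day library of day 0 (0.49, adjusted p = 0.232).

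Of the 8 tested chain extenders and cofactors, 3 were higher and 3 lower on day 12 than on day 8 on the TMM scale, against 23.8% and 33.4% of all genes, and 1 and 6 on the TPM scale, against 8.38% and 53.6%. UBE2N builds chains used in signalling and repair and needs UBE2V1 or UBE2V2, catalytically inactive relatives, as a partner. UBE2N had 61.9 and 60.3 TPM on day 0, 15.1 and 26.5 on day 8, and 4.69 and 3.17 on day 12. It fell by 1.06 ± 0.17 to day 8 (adjusted p = 0.00038 with edgeR) and by 1.02 ± 0.17 from there to day 12 (adjusted p = 0.000161), with no overlap between these days. UBE2V1 went the other way at first, with 235 and 235 TPM on day 0, 204 and 298 on day 8, and 127 and 87.8 on day 12. UBE2V1 rose by 0.67 ± 0.13 to day 8 on the TMM scale (adjusted p = 0.00149), while its TPM of day 8 lay on both sides of day 0. Between days 8 and 12 UBE2V1 was not called on the TMM scale (0.21 ± 0.13, adjusted p = 0.191). On the TPM scale UBE2V1 was lower on day 12 than on day 8 (-1.22, adjusted p = 6.12e-05 with limma). From day 0 to day 12 it was higher by 0.87 on the TMM scale and lower by a difference of -1.15 on the TPM scale.

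The ratio of UBE2V1 to UBE2N was close between the library sets and larger on the later days. It was 3.79 and 3.90 on day 0, 13.5 and 11.2 on day 8, and 27.0 and 27.7 on day 12. UBE2V2, the other partner, had 60.8 and 59.9 TPM on day 0 and 12 and 7.06 TPM on day 12. UBE2V2 was lower on day 12 than on day 8 (-0.59 ± 0.21, adjusted p = 0.027), a call lost without the all-day library of day 8 (-0.54, adjusted p = 0.103) or of day 12 (-0.41, adjusted p = 0.184).

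**Figure D5:**
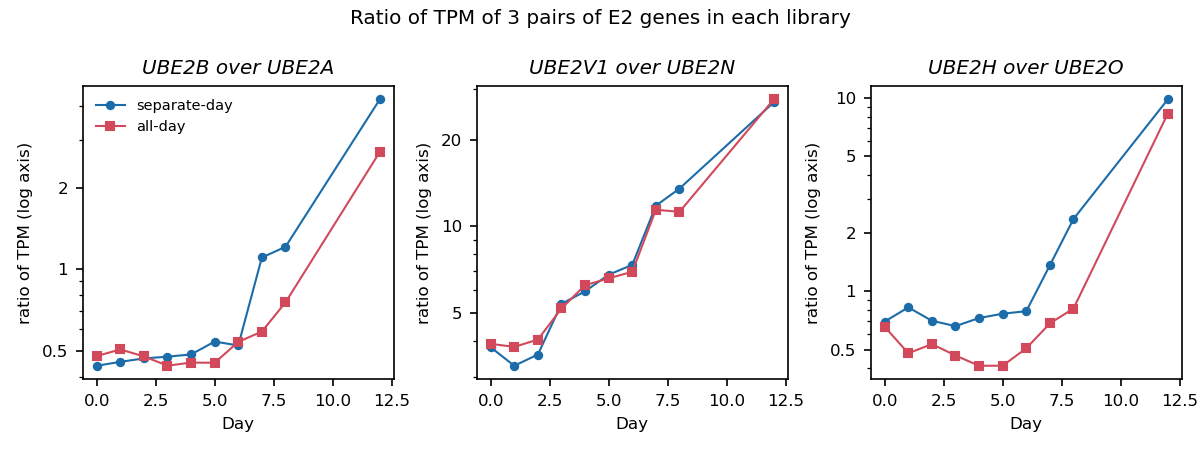
Ratio of TPM within each library (vertical, log axis) against day (horizontal) for UBE2B over UBE2A, UBE2V1 over UBE2N and UBE2H over UBE2O, 1 line for each library set. The day 12 ratios are the highest in each panel, at 4.23 and 2.71, 27.0 and 27.7, and 9.85 and 8.31.

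UBE2R2, a sister of CDC34 that serves cullin ligases, had 25.1 and 28.8 TPM on day 0, 17.0 and 16.2 on day 8, and 23.7 and 19.5 on day 12. UBE2R2 rose by 1.81 ± 0.13 from day 8 to day 12 on the TMM scale (adjusted p = 7.62e-08 with edgeR) and by 0.36 ± 0.13 on the TPM scale (adjusted p = 0.0295 with limma). Against day 0 it was higher on the TMM scale (1.72 ± 0.13) and lower on the TPM scale (-0.31). UBE2K, which makes the chains read by the proteasome, fell from 34.5 and 50.1 TPM on day 8 to 12.4 and 7.41 TPM on day 12, with a TMM log2 fold change of -0.67 ± 0.15 (adjusted p = 0.0015). UBE2S, which extends chains for the anaphase-promoting complex, had 168 and 106 TPM on day 0, 167 and 122 on day 8, and 36.1 and 34.4 on day 12. UBE2S was not called in any of these comparisons on the TMM scale. Its day 8 log2 change was 0.68 within the separate-day set and 0.70 within the all-day set. The sets differed later, with -1.11 and -0.046 from day 8 to day 12, and -0.43 and 0.65 from day 0 to day 12. On the TPM scale UBE2S was lower on day 12 than on day 8 (-1.98, adjusted p = 0.000372 with limma). UBE2G1, which extends chains for cullin ligases, was above 0 from day 8 to day 12 on the TMM scale (0.96 ± 0.14, called) and below 0 by TPM.

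Of the E2 enzymes of the endoplasmic reticulum membrane, which serve degradation of misfolded proteins, UBE2J1 had 71.2 and 76.5 TPM on day 0, 23.2 and 31.3 on day 8, and 5.72 and 3.41 on day 12. UBE2J1 fell by 0.86 ± 0.14 to day 8 (adjusted p = 0.000552 with edgeR) and by 1.14 ± 0.15 to day 12 (adjusted p = 1.52e-05). Its days did not overlap. UBE2J2 had 88.6 and 68.4 TPM on day 0, 34.6 and 36.4 on day 8, and 26.4 and 25.2 on day 12. UBE2J2 fell to day 8 by 0.61 ± 0.17 (adjusted p = 0.0134), and from day 8 to day 12 it was higher on the TMM scale (1.06 ± 0.17, adjusted p = 0.000127) and lower on the TPM scale (-0.44). The day 8 call was lost without the separate-day library of day 0 (-0.35, adjusted p = 0.191) or the all-day library of day 8 (-0.53, adjusted p = 0.0722). UBE2J2 has 14 transcripts, the leading one a predicted model with a median share of 17.8%, and with curated transcripts alone both of its TMM changes turned over, to 1.69 and -1.11. UBE2G2, the soluble enzyme of the same pathway, had 147 and 133 TPM on day 0 and 54.4 and 73.9 TPM on day 8. It fell by 0.54 ± 0.14 to day 8 (adjusted p = 0.00915), a call lost without the separate-day library of day 0 (-0.43, adjusted p = 0.0907) or of day 8 (-0.46, adjusted p = 0.086). Its later call, higher on day 12 than on day 8 on the TMM scale (0.36 ± 0.14) and lower by TPM, was lost in 18 of the 20 fits that left out a library.

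Among the enzymes that carry ubiquitin-like proteins, UBE2L6, the E2 for ISG15, was the earliest to change. It had 66.2 and 68.0 TPM on day 0, 104 and 134 on day 4, 77.2 and 104 on day 8, and 22.7 and 17.3 on day 12. The libraries of days 4 to 6 lay between 99.5 and 134 TPM, all above day 0. UBE2L6 rose by 0.93 ± 0.12 from day 0 to days 4 to 6 (adjusted p = 0.000268 with edgeR), stood 1.02 ± 0.14 above day 0 on day 8 (adjusted p = 0.00015, against 0.42 on the TPM scale, adjusted p = 0.115), and fell by 0.71 ± 0.14 from day 8 to day 12 (adjusted p = 0.000783). ISG15, the protein it carries, had 22.3 and 13.2 TPM on day 0, 8.20 and 4.03 on day 8, and 10.4 and 9.23 on day 12, and its day 8 difference was called on the TPM scale (-1.42, adjusted p = 0.00925 with limma) and not on the TMM scale (-0.89 ± 0.48, adjusted p = 0.163).

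UBE2M and UBE2F are the E2 enzymes for NEDD8. UBE2M had 337 and 246 TPM on day 0, 147 and 149 on day 8, and 175 and 162 on day 12. On the TMM scale its day 8 difference was not called (-0.38 ± 0.25, adjusted p = 0.254) but on the TPM scale it was lower (-0.96, adjusted p = 0.00165), and from day 8 to day 12 it rose by 1.64 ± 0.26 (adjusted p = 0.000107 with edgeR), with a difference of 0.19 on the TPM scale that was not called. Against day 0 it was higher on the TMM scale (1.26) and lower on the TPM scale (-0.77). UBE2F had 61.1 and 63.6 TPM on day 0, against 50.1 and 41.0 TPM on day 12, and was higher on day 12 than on day 8 on the TMM scale (1.11 ± 0.21) and below 0 by TPM. In the separate-day library of day 0 the readthrough transcript UBE2F-SCLY had 26.0 TPM, against 0.0790 TPM in the all-day library, and reads shared by both genes cannot be told apart.

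UBE2Z, the E2 for FAT10, had 42.2 and 54.0 TPM on day 0 and 15.6 and 14.0 TPM on day 12. Its TMM difference between days 8 and 12 was 0.39 ± 0.13, against a lower level by TPM, and the call was lost without either library of day 8 or the all-day one of day 12 (0.26, adjusted p = 0.164).

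UBE2Q1 and UBE2Q2 belong to a less studied branch of the family and moved apart at the end. UBE2Q1 had 44.6 and 37.4 TPM on day 0, 23.6 and 25.7 on day 8, and 33.3 and 30.9 on day 12. From day 8 to day 12 it rose by 1.83 ± 0.20 on the TMM scale (adjusted p = 2.95e-06 with edgeR) and by 0.37 ± 0.14 on the TPM scale (adjusted p = 0.037 with limma), and it stayed below day 0 by TPM. UBE2Q2 had 28.8 and 44.4 TPM on day 0, 23.4 and 38.5 on day 8, and 3.18 and 1.42 on day 12. It fell by 2.30 ± 0.28 from day 8 to day 12 (adjusted p = 9.53e-06). UBE2L3, which works with HECT and RBR ligases, went from 104 and 82.1 TPM on day 0 to 14.8 and 15.4 TPM on day 12, with no call on the TMM scale in these comparisons (-0.57 ± 0.27 for day 12 against day 0, adjusted p = 0.0749). Levels of UBE2L3 and UBE2S are uncertain where reads are shared with the related loci UBE2L1, at 3.64 to 21.3 TPM, and UBE2SP1, at 2.83 to 17.5 TPM.

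Other genes of the pathway were read from lists. Of the 11 genes of the CTLH complex, the partner ligase of UBE2H, 7 were higher and 0 lower on day 8 than on day 0 on the TMM scale (median 0.60, against 0.00 for all genes, of which 17.7% were higher and 19.4% lower), and 8 were higher and 2 lower on day 12 than on day 8 (median 1.35, against -0.20, with 23.8% higher and 33.4% lower). On the TPM scale these counts were 2 and 2, against 7.29% and 39.7% of all genes, and 2 and 4, against 8.38% and 53.6%. WDR26, a substrate-binding subunit, had 32.9 and 39.6 TPM on day 0, 50.8 and 47.1 on day 8, and 170 and 98.5 on day 12, and rose from day 8 to day 12 on both scales (TMM 2.85 ± 0.16, adjusted p = 5.91e-09). RMND5A, one of the catalytic RING subunits, went from 33.1 and 33.6 TPM on day 8 to 82.5 and 59.9 TPM on day 12 and rose on both scales too (TMM 2.52 ± 0.23). Its catalytic partner MAEA had 51.9 and 64.6 TPM and then 41.7 and 34.2 TPM, higher on the TMM scale (0.83 ± 0.11) and lower on the TPM scale (-0.60). YPEL5 had 22.9 and 23.0 TPM on day 0 and 63.5 and 43.4 TPM on day 8, a rise on both scales (TMM 1.86 ± 0.42, adjusted p = 0.00379), as was that of RANBP10 from 23.0 and 27.5 TPM to 53.3 and 69.1 TPM.

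Of 9 E1 enzymes, 8 were lower on day 12 than on day 8 on the TMM scale, and the same number on the TPM scale. The exception was UBA1, the main E1 for ubiquitin, with 180 and 223 TPM on day 0, 54.6 and 81.8 on day 8, and 51.2 and 49.4 on day 12. UBA1 was lower on day 8 than on day 0 on both scales (TMM -0.94 ± 0.27, adjusted p = 0.0143), and from day 8 to day 12 it was higher on the TMM scale (1.24 ± 0.27) with a TPM difference of -0.40 that was not called. Of the 4 ubiquitin genes, 3 were higher on day 12 than on day 8 on the TMM scale, and 2 also on the TPM scale, of which UBB is one. RPS27A, which encodes ubiquitin fused to a ribosomal protein, was not called on the TMM scale (-0.06 ± 0.16) and was lower on the TPM scale (-1.56).

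Of 8 E2 proteins outside the UBE2 symbol, 2 were higher and 3 lower on day 12 than on day 8 on the TMM scale, and 1 and 6 on the TPM scale. CDC34, the cullin-dependent E2 and sister of UBE2R2, had 85.1 and 74.2 TPM on day 0, 157 and 119 on day 8, and 322 and 363 on day 12. It rose from day 8 to day 12 on both scales (TMM 2.77 ± 0.31, adjusted p = 4.15e-06, and TPM 1.32), and on day 12 both its libraries were above every UBE2 gene described here. Of the 6 ligases that work with the RAD6 pair, 2 were higher and 3 lower from day 8 to day 12 on the TMM scale, and 1 and 4 on the TPM scale. UBR2, an N-degron ligase, went from 26.0 and 22.7 TPM to 88.5 and 71.4 TPM, and RAD18 from 9.14 and 12.7 TPM to 0.605 and 0.174 TPM, both called on both scales.

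Of the 8 partners in degradation from the endoplasmic reticulum, 6 were higher and 1 lower from day 8 to day 12 on the TMM scale, and 3 and 3 on the TPM scale. Of 8 NEDD8 genes, 5 were higher and 2 lower on the TMM scale, and 1 and 5 on the TPM scale, and of 14 SUMO genes, 3 and 5 on the TMM scale, and 1 and 12 on the TPM scale. Of the 3 ISG15 genes, 1 was higher and 1 lower on the TMM scale and none was called on the TPM scale. All these list counts stand beside 23.8% higher and 33.4% lower for all genes on the TMM scale, and 8.38% and 53.6% on the TPM scale.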

How the data were processed

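RNA-seq was done on HUDEP-2 cells with the TruSeq Stranded mRNA kit. Per the submitters' processing notes, reads were trimmed (Trimmomatic 0.38), aligned to hg38 (HISAT2 2.1.0) and quantified on RefSeq transcripts (StringTie 2.1.3b). The authors deposited, for 170322 transcripts in 4 tables, read counts without normalization, TPM scaled to a common library total and FPKM scaled for length and depth. How reads shared by transcripts were divided is not given in the sources used here. Of 63 value columns, 40 were read and 23 were not used, which were FPKM values or the day 0 library left out of the 3 present, in the table of the day 12 library. Columns name a day but no replicate.

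Counts and TPM were summed by gene symbol. Counts of all 20 libraries were fitted with edgeR 4.0.16 in R 4.3.3 (filterByExpr, TMM, glmQLFit and glmQLFTest, a coefficient per day), and log2(TPM + 1) with limma 3.58.1. The limit of 3 counts covers counting error only, whereas each SE also holds the spread between libraries. On simulated counts of 15661 genes for day 8 against day 0, edgeR recovered 99.5% of 200 genes changed 4-fold, with 4.78% of calls false. All simulated libraries shared a common mean profile apart from these 200 genes on day 8. False calls under a wide shift, such as that of globin or ribosomal RNA, were therefore not measured. The spread between simulated libraries was set in advance and was not estimated from these libraries. Recovery and false calls at the spread of these data were therefore not measured either.

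The members, gene lists and tests were chosen with earlier results of these data known. All members are counted, and some genes of the counts are not reported here by name. UBE2H and UBE2O, the 5 largest increases and 5 largest decreases of days 8 and 12, and the highest genes of each day were named by rule, and other members named with values were added after values were seen. The alternatives were edgeR's exact test, DESeq2 1.42.0, limma with a pseudocount of 1 or 0.1, other scalings and filters, fewer days, a block for the table set, curated transcripts and each library left out. A fit without the separate-day libraries of days 7 and 8 was chosen after seeing the data.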

Additional observations from a re-analysis of the deposited data

How the results depend on the processing

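No paired analysis was possible because the deposited columns carry no replicate number. A block for the table set was fitted instead. Counts below are of genes called, and the cause of each shift was not tested unless the setting itself uses fewer libraries or transcripts.

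For days 4 to 6 against day 0, the 3 members higher became 1 with limma at either pseudocount and 5 with the table-set block. The 2 members lower became 4 with the exact test, 5 with DESeq2, 6 and 4 with limma (pseudocounts 1 and 0.1), 4 with only the days compared, 5 with the block and 0 with curated transcripts. All genes went from 1238 higher to 760, 776, 2108 and 691 with limma (1, 0.1), the block and curated transcripts, and from 1547 lower to 2358 with limma (pseudocount 1), 2701 with the block and 840 with curated transcripts. Counts over all genes are not given here for the exact test, DESeq2 and only the days compared, so their member counts have no share beside them. Leaving out 1 library gave 1 to 3 members higher, 0 to 3 lower, 374 to 1446 genes higher and 585 to 1659 lower.

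For day 8 against day 0, the 6 members higher became 1 with limma at either pseudocount and 11 with the block, and the 7 lower became 16 and 15 with limma and 3 without the separate-day libraries of days 7 and 8. The share of calls over all genes that were higher was 46.8% with the block, against 47.7%. How many of all genes were called higher with the block is not given here, so the 11 members have no share beside them. All genes higher went from 2970 to 1223 and 1242 with limma, 1699 with only the days compared, 1942 with curated transcripts and 1805 without those libraries. Genes lower went from 3254 to 6660, 6555, 2027, 2081 and 1916 in the same order. Leaving out 1 library gave 4 to 7 members higher, 3 to 8 lower, 1697 to 3173 genes higher and 1871 to 3311 lower, with the fewest members lower without the separate-day library of day 0.

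For day 12 against day 8, limma (pseudocounts 1 and 0.1) gave 4 and 4 members higher in place of 13, 22 and 22 lower in place of 8, 1407 and 1361 genes higher in place of 3997, and 8997 and 9739 lower in place of 5611. The share of calls that were higher went from 41.6% to 13.5%. For day 12 against day 0, it gave 2 and 2 members higher in place of 16, 29 and 28 lower in place of 9, 1700 and 1713 genes higher in place of 4980, and 11032 and 11413 lower in place of 6461.

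Over all members called higher, 8 lay below 0 on the TPM scale from day 8 to day 12 and 14 from day 0 to day 12. The turns listed next cover all changes of UBE2H and UBE2O, and changes of other rule-named members that were called on the TMM scale. Directions turned on the TPM scale for UBE2H on days 4 to 6 (-0.0049 and -0.0062, not called). From day 8 to day 12 they turned for UBE2J2 (-0.44 and -0.46) and UBE2O (-0.85 and -0.90). From day 0 to day 12 they turned for UBE2J2 (-1.56 and -1.59), UBE2M (-0.77 and -0.77), UBE2O (-0.84 and -0.89), UBE2Q1 (-0.34 and -0.35), UBE2R2 (-0.31 and -0.32), UBE2V1 (-1.15 and -1.15) and UBE2W (-0.74 and -1.0). Some changes not called on the TMM scale turned too and were called lower with log2(TPM + 1). These were UBE2V1 (-1.22) and UBE2W (-0.91) from day 8 to day 12, and UBE2L6 (-1.71) from day 0 to day 12. With curated transcripts UBE2J2 turned at day 8 (1.69) and day 12 (-1.11), and UBE2O against day 8 (-0.49) and day 0 (-0.045).

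Only 4-fold changes of few genes were simulated, with a preset spread between libraries and without a wide shift in composition. The smallest change that 2 libraries a day can show, and false calls under such a shift, were not measured. On simulated counts, 11.3% of DESeq2's calls were false for day 8 against day 0 and 34.9% for any change over the 10 days.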
